A study of Mus musculus with 24 samples.

Results

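Toll-like receptors and the NF-kB pathway behind them were followed in 43 genes, taken as a fixed list of symbols and matched by Ensembl identifier to the 54232 genes of the count tables. The list holds 12 receptors and co-receptors, 4 adaptors, 13 kinases and ubiquitin-linked factors, 5 NF-kB subunits and 9 inhibitors and feedback genes. All 43 symbols matched a single identifier, and 42 had counts. The cells came from bone marrow of female C57BL/6 mice aged 6 to 8 weeks, kept for 7 days as stromal cultures in MEM-alpha with 10% serum and then sorted on the leukocyte surface protein CD45 and on Sca1. The 4 groups, of 6 libraries each, were CBM hematopoietic (Sh3bp2KI/KI, CD45+Sca1+), WT hematopoietic (wild type, CD45+Sca1+), CBM mesenchymal (Sh3bp2KI/KI, CD45-Sca1+) and WT mesenchymal (wild type, CD45-Sca1+). CBM is the title word for mice carrying the knock-in allele on both copies of Sh3bp2, the gene of an immune adaptor protein whose human mutations cause the jaw disease cherubism. The labels do not say what the allele alters, whether mice were pooled, or whether replicates were separate animals or cultures, so a p-value here covers the spread between libraries, which may be technical in part.

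Toll-like receptors sense microbial lipids, proteins and nucleic acids, from the cell surface or from endosomes. Through the adaptors MYD88 and TRIF and kinases of the IRAK family they activate TRAF6, TAK1 and the IKK complex. IKK marks the inhibitory IkB proteins for destruction, which frees dimers of the NF-kB subunits to enter the nucleus. NF-kB in turn induces genes that stop it, such as IkB-alpha itself and the A20 partner TNIP1. A slower branch through MAP3K14 and TRAF3 matures the p100 product of Nfkb2 and acts with RELB. In bone marrow these pathways operate in macrophages and in the osteoclasts that form from the same precursors.

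Total counts per library ran from 9875390 to 15826711. Sh3bp2 had 184.5, 224.5 and 285.4 CPM (read counts scaled to a common library size; lowest, median and highest library) in CBM hematopoietic cells, against 162.4, 218.2 and 233.6 CPM in WT hematopoietic cells, and its log2 difference was 0.15 (adjusted p = 0.448). The 10 leukocyte markers summed to 3841 to 4486 CPM in CBM hematopoietic and 4061 to 4708 CPM in WT hematopoietic libraries, and to at most 48.7 and 30.6 CPM in CBM and WT mesenchymal ones. The hematopoietic libraries also held stromal markers. Their 12-gene sum ran from 1627 to 10910 CPM in CBM and from 1837 to 10330 CPM in WT hematopoietic cells, against 27610 to 55740 CPM in CBM and 23000 to 46390 CPM in WT mesenchymal cells, and none of the 12 was called between the hematopoietic genotypes. In bulk RNA, fewer cells of a type and less RNA per cell cannot be told apart.

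In hematopoietic cells the genotypes differed in opposite directions at the 2 ends of the pathway. Most receptors that were called fell in CBM cells, and the inhibitors and feedback genes that were called rose. Of 42 members tested, 11 rose, where 9.01% of all 14030 genes tested rose. Another 7 fell, where 6.89% of all genes fell (15.9% in either direction). Among the 12 receptors, 6 fell and 1 rose, with a median log2 difference of -0.43. Among the 9 inhibitors and feedback genes, called inhibitors below for short, 5 rose and none fell, with a median of 0.95. The median over all 14030 genes was -0.005. A gene counts as changed at a Benjamini-Hochberg adjusted p under 0.05 over all genes tested by edgeR's quasi-likelihood test, and every log2 difference between genotypes is CBM over WT.

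**Figure D1:**
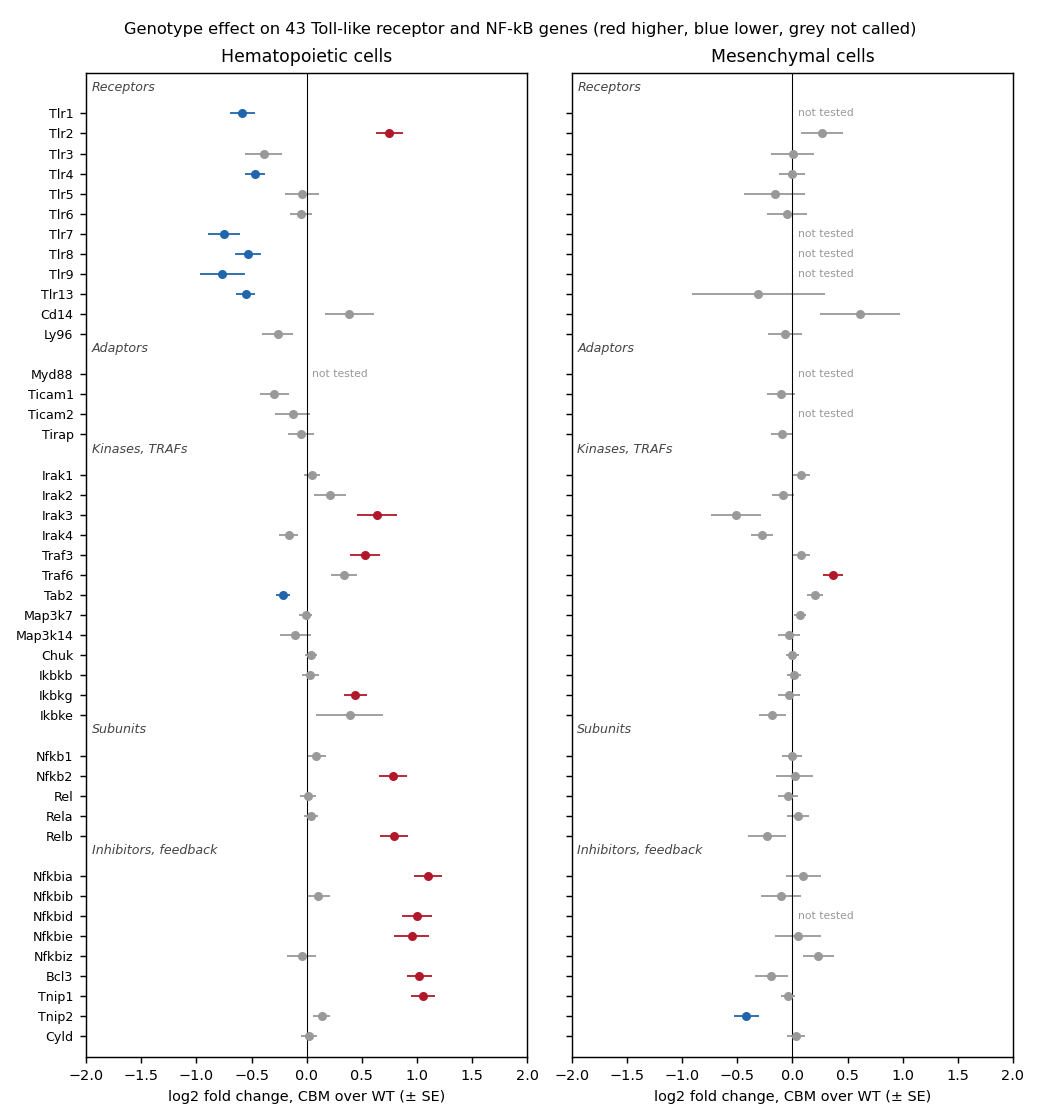
Log2 difference between CBM and WT cells (horizontal axis, with its standard error) for the 43 genes in hematopoietic cells (left panel) and mesenchymal cells (right panel), ordered by role. Red marks genes that rose, blue genes that fell, grey genes that were not called. In hematopoietic cells most receptors lie left of 0 and 5 of the 9 inhibitors lie near 1.00, while in mesenchymal cells Traf6 (0.37) and Tnip2 (-0.42) are the coloured points.

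Other cell type markers moved with genotype in these libraries. Of 10 osteoclast markers 9 rose, and none was at 0 in either genotype. Their summed level was 2343, 4759 and 5880 CPM (lowest, median, highest) in CBM libraries, against 297.8, 829.8 and 2106 CPM in WT libraries. Of 10 macrophage and monocyte markers Lyz2 rose and Adgre1, Mrc1, Cd163, Fcgr1 and Ccr2 fell. Their log2 differences were negative for 7 and positive for 3, with a median of -0.49. Their sums were 16090 to 24180 CPM in CBM and 11950 to 20070 CPM in WT libraries. The 8 neutrophil markers tested were all negative (median log2 -0.55), and none was called. Of 10 leukocyte markers 2 rose and 4 fell. Cd79a was the 1 of 6 B cell markers called lower, while all 6 were negative, with a median log2 difference of -1.69. B cell sums were 30.7 to 87.5 CPM in CBM and 28.2 to 221.8 CPM in WT libraries. Cd4, the 1 T and NK cell marker with enough counts to be tested, rose. The 7 markers of that list summed to 22.2 to 60.4 CPM in CBM and 11.9 to 23.7 CPM in WT libraries. The part of these cell types in the differences of receptors, kinases, subunits and inhibitors given here was not tested.

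The receptors that fell included all 4 measured endosomal receptors of single-stranded RNA and DNA in the list. Tlr7, which senses single-stranded RNA, had 132.5, 177.3 and 271.5 CPM (lowest, median, highest) in CBM hematopoietic cells, against 262.8, 317.1 and 389.5 CPM in WT hematopoietic cells. Its log2 difference was -0.75 (SE 0.15, adjusted p = 0.00395), and the groups overlapped only between the highest CBM and the lowest WT library. Tlr13, a rodent receptor of bacterial ribosomal RNA, had 191.2, 220.9 and 280.0 CPM in CBM cells, against 267.9, 356.0 and 372.6 CPM in WT cells (log2 -0.55, SE 0.09, adjusted p = 0.000942). Tlr8, a relative of Tlr7, had 105.1, 133.2 and 166.5 CPM in CBM cells, against 147.2, 204.9 and 218.0 CPM in WT cells (log2 -0.53, SE 0.12, adjusted p = 0.00695). For both genes the highest CBM library passed the lowest WT library while the medians stood apart. Tlr9, the receptor of unmethylated CpG DNA, was the lowest of the 4, at 5.32, 10.3 and 11.4 CPM in CBM cells, against 10.0, 15.6 and 22.8 CPM in WT cells (log2 -0.77, SE 0.21, adjusted p = 0.0224). Its call was lost without WT replicate 1 (adjusted p = 0.0525), and in 1 fit of all 24 libraries Tlr9, Tlr8 and Tlr13 were not called (adjusted p = 0.0502, 0.053 and 0.0886).

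At the cell surface the receptors split. Tlr4, the receptor of lipopolysaccharide, had 85.4, 107.4 and 128.9 CPM in CBM hematopoietic cells, against 118.5, 147.0 and 186.5 CPM in WT hematopoietic cells (log2 -0.47, SE 0.09, adjusted p = 0.00336). Tlr1, which pairs with Tlr2 on bacterial lipopeptides, had 29.95, 37.8 and 54.1 CPM in CBM cells, against 48.7, 60.6 and 71.5 CPM in WT cells (log2 -0.58, SE 0.12, adjusted p = 0.00402). Tlr2 itself was the 1 receptor that rose, at 98.3, 134.2 and 161.8 CPM in CBM cells, against 61.5, 78.4 and 108.8 CPM in WT cells (log2 0.75, SE 0.12, adjusted p = 0.00124). Each of these 3 genes had a narrow overlap between the genotypes, so that no receptor separated all CBM from all WT libraries. Tlr6, the other partner of Tlr2, was at 10.3, 12.1 and 13.6 CPM in CBM cells, against 9.87, 12.6 and 15.4 CPM in WT cells (log2 -0.05, adjusted p = 0.781).

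The remaining receptors were not called. Tlr3, the endosomal receptor of double-stranded RNA, was at 10.1, 13.3 and 20.4 CPM in CBM hematopoietic cells, against 14.9, 19.2 and 24.5 CPM in WT hematopoietic cells (log2 -0.39, adjusted p = 0.134). It was called with the replicate numbers as a block (adjusted p = 0.0497), with the stromal marker sum as a covariate (0.0292) and without CBM replicate 5 (0.0438). Tlr5, the flagellin receptor, was at 5.71 to 9.55 CPM in CBM cells and 6.62 to 10.4 CPM in WT cells (log2 -0.04, adjusted p = 0.891). The lipopolysaccharide co-receptor Cd14 was at 78.3, 108.3 and 233.0 CPM in CBM cells, against 62.4, 71.9 and 156.1 CPM in WT cells (log2 0.39, adjusted p = 0.29). Its spread within each genotype exceeded the difference of the medians. Ly96, the MD-2 subunit that holds lipopolysaccharide on TLR4, was at 24.8, 28.4 and 31.1 CPM in CBM cells, against 24.7, 31.5 and 47.3 CPM in WT cells (log2 -0.26, adjusted p = 0.242).

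**Figure D2:**
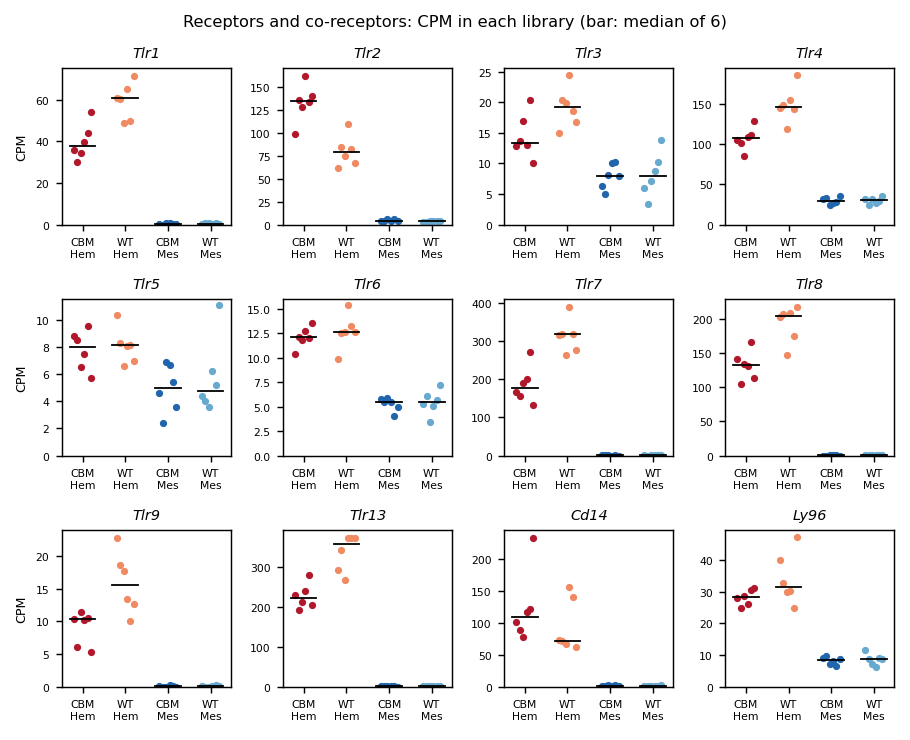
CPM of the 12 receptors and co-receptors in each library (points) with the median of each group of 6 (bar), for CBM and WT hematopoietic (Hem) and CBM and WT mesenchymal (Mes) cells. Tlr7 is at 132.5 to 271.5 CPM in CBM hematopoietic libraries and 262.8 to 389.5 CPM in WT ones, Tlr2 runs the other way, and Tlr1, Tlr7, Tlr8, Tlr9 and Tlr13 lie near 0 in mesenchymal libraries.

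None of the 3 adaptors with counts was called. The TRIF gene Ticam1 had a log2 difference of -0.29 (adjusted p = 0.152), its bridging adaptor Ticam2 of -0.13 (0.653) and the MYD88 bridging adaptor Tirap of -0.05 (0.83). Ticam2 shares 838 exonic bases with Tmed7 on the same strand, so its reads may have been split or dropped. Myd88 was listed at 0 in all 24 libraries. It overlaps the opposite-strand gene Acaa1a over 290 exonic bases, and Cfb, Hba-a1 and Hbb-bs were also listed at 0 throughout, so no level of Myd88 was read.

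Among the 13 kinases and ubiquitin-linked factors, 3 rose and 1 fell, with a median log2 difference of 0.04. Irak3, a kinase-dead family member that restrains the receptor complex, had 97.8, 117.3 and 222.1 CPM in CBM hematopoietic cells, against 73.4, 88.2 and 97.0 CPM in WT hematopoietic cells (log2 0.64, SE 0.18, adjusted p = 0.0316). Every CBM library stood above every WT library, by a margin of under 1 CPM between the nearest ones. Its call was lost when any 1 of CBM replicate 2 and WT replicates 3 to 6 was left out (adjusted p from 0.053 to 0.0681) and with genes of low counts kept in the fit (0.0925). Irak3 shares 192 exonic bases with Tmbim4 on the opposite strand, and Tmbim4 had a log2 difference of 0.02. Traf3, which holds MAP3K14 down and also serves the interferon branch, had 133.0, 166.6 and 210.1 CPM in CBM cells, against 99.9, 116.6 and 141.6 CPM in WT cells (log2 0.53, SE 0.13, adjusted p = 0.0163). Ikbkg, the regulatory subunit NEMO of the IKK complex, had 62.0, 79.0 and 101.2 CPM in CBM cells, against 54.5, 57.95 and 68.4 CPM in WT cells (log2 0.44, SE 0.11, adjusted p = 0.0133). The genotypes overlapped for both Traf3 and Ikbkg. It overlaps G6pdx on the opposite strand over 418 exonic bases, and G6pdx fell in the same cells (log2 -0.28, adjusted p = 0.0128).

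Tab2, which binds ubiquitin chains and activates TAK1, was the kinase-complex member that fell. It had 278.0, 311.8 and 346.8 CPM in CBM hematopoietic cells, against 341.3, 365.0 and 395.4 CPM in WT hematopoietic cells (log2 -0.21, SE 0.07, adjusted p = 0.0463). Leaving out any 1 library other than CBM replicate 4 ended this call (adjusted p from 0.0611 to 0.119), as did keeping genes of low counts (0.121). The other 9 were not called, and 5 of these stood within 0.11 of 0 on the log2 scale: the receptor-proximal kinase Irak1 (0.04), the TAK1 gene Map3k7 (-0.01), Map3k14 of the slower branch (-0.10), and the IKK kinases Chuk (0.04) and Ikbkb (0.03). The others were the kinases Irak4 (-0.16), Irak2 (0.21) and Ikbke (0.39) and the ubiquitin ligase Traf6 (0.34, adjusted p = 0.0736). With the replicate numbers as a block Irak2, Traf6 and Ikbke were called higher (adjusted p = 0.03, 0.0265 and 0.0439), and Traf6 was also called without CBM replicate 1 (0.00841), with the stromal marker covariate (0.034) and in 1 fit of all 24 libraries (0.0354).

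Of the 5 NF-kB subunits, the pair of the slower branch rose. Nfkb2, the gene of p100 and p52, had 79.2, 99.4 and 130.2 CPM in CBM hematopoietic cells, against 51.5, 61.7 and 65.8 CPM in WT hematopoietic cells (log2 0.78, SE 0.13, adjusted p = 0.00121). Relb, its partner, had 45.8, 56.4 and 65.6 CPM in CBM cells, against 23.9, 32.7 and 40.0 CPM in WT cells (log2 0.79, SE 0.13, adjusted p = 0.00126). For both genes all 6 CBM libraries stood above all 6 WT libraries. Nfkb2 shares 299 exonic bases with Psd on the opposite strand, whose mean count was 5.9. The subunits of the rapid branch had small differences that were not called, at 0.09 for Nfkb1 (95% interval -0.08 to 0.25), 0.01 for Rel and 0.04 for Rela.

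The inhibitors held the widest differences of the 43 genes. Nfkbia, which encodes IkB-alpha and is itself induced by NF-kB, had 49.7, 63.4 and 86.1 CPM in CBM hematopoietic cells, against 26.95, 30.9 and 35.4 CPM in WT hematopoietic cells (log2 1.10, SE 0.13, adjusted p = 0.000124). Tnip1, a ubiquitin-binding partner of the deubiquitinase A20, had 163.5, 209.5 and 264.2 CPM in CBM cells, against 88.2, 101.6 and 118.9 CPM in WT cells (log2 1.06, SE 0.11, adjusted p = 6.63e-05). Bcl3, a nuclear IkB protein that binds p50 and p52 dimers, had 37.9, 49.6 and 65.3 CPM in CBM cells, against 18.8, 24.9 and 34.5 CPM in WT cells (log2 1.02, SE 0.12, adjusted p = 0.000115). All 3 genes left a gap between the lowest CBM and the highest WT library. Nfkbid, another nuclear IkB protein, had 27.8, 32.0 and 50.1 CPM in CBM cells, against 15.1, 16.1 and 21.3 CPM in WT cells (log2 1.00, SE 0.13, adjusted p = 0.000339). Nfkbie, which encodes IkB-epsilon, had 32.1, 48.8 and 69.0 CPM in CBM cells, against 20.5, 26.97 and 28.3 CPM in WT cells (log2 0.95, SE 0.16, adjusted p = 0.00145). These also separated fully.

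The other 4 inhibitors were not called. Nfkbiz, the nuclear protein IkB-zeta, was at 45.5, 62.9 and 73.7 CPM in CBM hematopoietic cells, against 49.7, 64.5 and 75.3 CPM in WT hematopoietic cells (log2 -0.05, adjusted p = 0.854). The deubiquitinase Cyld was at 92.6, 96.5 and 106.8 CPM in CBM cells, against 82.9, 97.3 and 107.8 CPM in WT cells (log2 0.02, adjusted p = 0.892). Nfkbib, the gene of IkB-beta, was at 14.5, 15.99 and 19.3 CPM in CBM cells, against 12.3, 15.3 and 17.5 CPM in WT cells (log2 0.11, adjusted p = 0.562). Tnip2, a relative of Tnip1, was at 30.1, 36.5 and 39.8 CPM in CBM cells, against 29.4, 33.5 and 37.7 CPM in WT cells (log2 0.14, adjusted p = 0.3). All 4 had overlapping genotypes.

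**Figure D3:**
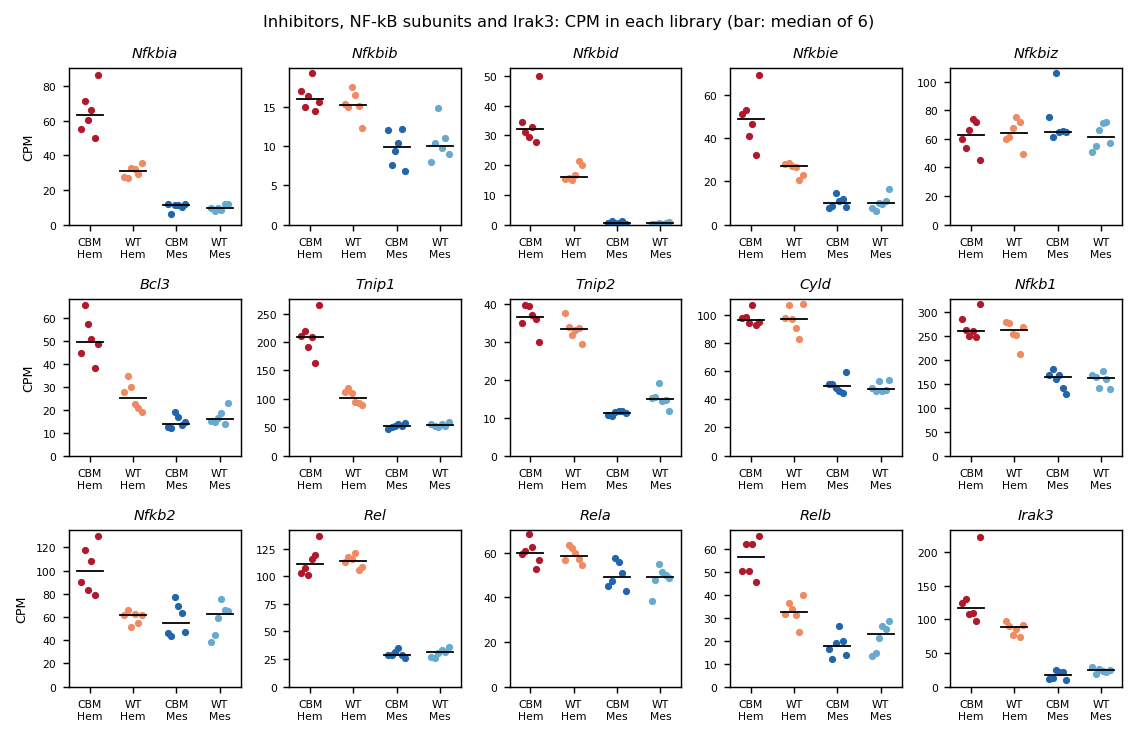
CPM of the 9 inhibitors, the 5 NF-kB subunits and Irak3 in each library (points) with the median of each group of 6 (bar), for CBM and WT hematopoietic (Hem) and CBM and WT mesenchymal (Mes) cells. Nfkbia, Nfkbid, Nfkbie, Bcl3, Tnip1, Nfkb2, Relb and Irak3 separate all CBM from all WT hematopoietic libraries, and the mesenchymal genotypes overlap for these 8 genes.

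Full separation was seen for 8 of the 42 members tested, all higher in CBM hematopoietic cells: Irak3, Nfkb2, Relb, Nfkbia, Nfkbid, Nfkbie, Bcl3 and Tnip1. Over all genes 4.62% separated in this direction. No member separated with CBM lower, where 3.21% of all genes did (7.83% in either direction). The CBM libraries were not uniform. Replicate 5 had the lowest value of its group for 10 of the 11 genes that rose, and replicate 6 had the highest for 9. Relative to the WT mean, the median over the 9 inhibitors was 0.34 on the log2 scale in CBM replicate 5 and 0.69 to 0.95 in the other 5 CBM libraries, against -0.18 to 0.09 in the WT libraries. The osteoclast marker sum also stood higher in every CBM library (2343 to 5880 CPM) than in every WT library (297.8 to 2106 CPM). The nearest sums were 2106 CPM in WT replicate 5 and 2343 CPM in CBM replicate 1, where the inhibitor medians were -0.06 and 0.83. CBM replicate 5, with the lowest inhibitor median of its group, had a sum of 4383 CPM. Because the sums did not overlap, genotype and osteoclast marker level cannot be fully told apart here. The part of the osteoclast marker level was not tested. The same median over the 12 receptors ran from -0.52 to -0.17 in CBM libraries and from -0.26 to 0.15 in WT libraries, so that the genotypes overlapped there.

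**Figure D4:**
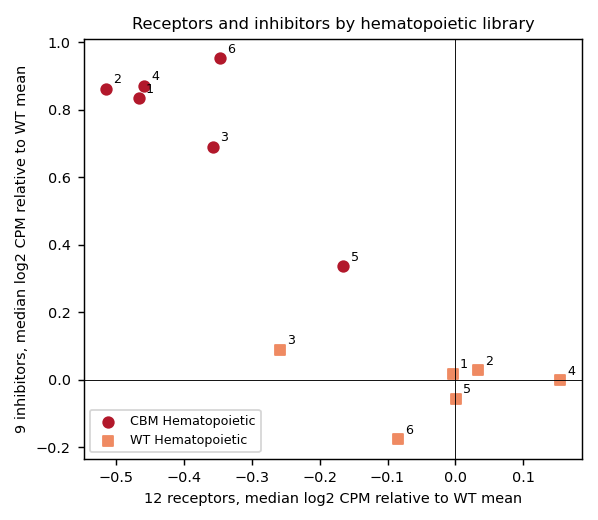
Each point is 1 hematopoietic library, with the median log2 CPM of the 12 receptors relative to the WT mean (horizontal axis) and the same median of the 9 inhibitors (vertical axis), for CBM and WT, numbered by replicate. The CBM libraries lie between 0.34 and 0.95 on the inhibitor axis and the WT libraries between -0.18 and 0.09, while on the receptor axis the genotypes overlap.

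Both file sets, a leading number in the deposited file names that splits each group into 3 and 3 libraries, gave the same signs. All 11 genes that rose were positive in set 1 alone (0.49 to 1.15 on the log2 scale) and in set 2 alone (0.41 to 1.22), and all 7 that fell were negative in set 1 (-1.05 to -0.26) and in set 2 (-0.70 to -0.15). With 3 libraries against 3, set 1 called 9 of the 11 and 3 of the 7, while set 2 called 2 of the 11, Bcl3 and Tnip1, and none of the 7. The genes were picked by their calls over both sets together, so the shared signs are no independent support.

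NF-kB is known to induce several of the genes that rose, and the promoters of the members were searched for the kB consensus, the 10-base motif that NF-kB dimers bind. RefSeq promoter windows of build GRCm38.p6 were available for 34 of the 43 members, and the 250 bases before each start were read on both strands. A match was found in 11 of the 34 (32.4%), against 1204 of 27025 genes with a window (4.46%). By role the matches fell in 5 of 8 inhibitors, 2 of 3 subunits, 2 of 12 kinases and ubiquitin-linked factors, 2 of 8 receptors and none of 3 adaptors. Of the genes that rose in CBM hematopoietic cells 7 of the 10 with a window had a match, and of those that fell none of 5. Among the members that were not called, 4 of 18 had one, including Rel. These counts describe letters in a window and show no binding. The list holds feedback genes that NF-kB is known to induce and was chosen with earlier results of these data known. The split by call is therefore no independent support, and the part of NF-kB in these differences was not tested.

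The sequences of 4 genes that rose follow, as the 250 bases before the start, 5′ to 3′ on the gene's strand, with the kB match in capitals. Nfkbia lies on the minus strand at chr12:55492648-55492897, Tnip1 on the minus strand at chr11:54962941-54963190, Nfkbie on the plus strand at chr17:45555450-45555699 and Traf3 on the plus strand at chr12:111166120-111166369. They are shown because each gene rose and holds a single matched stretch in a window where GENCODE annotates no exon. Tlr2 also rose and holds a single stretch, but 159 bases of its window lie in its own annotated exon.
Nfkbia: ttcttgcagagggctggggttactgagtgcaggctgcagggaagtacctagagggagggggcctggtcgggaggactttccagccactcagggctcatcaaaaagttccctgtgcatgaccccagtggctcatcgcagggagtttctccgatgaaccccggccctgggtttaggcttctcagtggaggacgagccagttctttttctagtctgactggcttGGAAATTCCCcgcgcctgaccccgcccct
Tnip1: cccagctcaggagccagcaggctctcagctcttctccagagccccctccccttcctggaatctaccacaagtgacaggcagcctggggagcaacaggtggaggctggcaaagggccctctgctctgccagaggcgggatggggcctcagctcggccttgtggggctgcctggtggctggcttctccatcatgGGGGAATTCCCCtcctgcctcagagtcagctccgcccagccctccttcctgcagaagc
Nfkbie: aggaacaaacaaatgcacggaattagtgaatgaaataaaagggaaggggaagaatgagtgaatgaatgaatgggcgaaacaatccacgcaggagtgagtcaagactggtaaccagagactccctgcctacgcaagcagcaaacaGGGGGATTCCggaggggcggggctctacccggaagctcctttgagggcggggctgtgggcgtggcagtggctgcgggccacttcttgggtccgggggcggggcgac
Traf3: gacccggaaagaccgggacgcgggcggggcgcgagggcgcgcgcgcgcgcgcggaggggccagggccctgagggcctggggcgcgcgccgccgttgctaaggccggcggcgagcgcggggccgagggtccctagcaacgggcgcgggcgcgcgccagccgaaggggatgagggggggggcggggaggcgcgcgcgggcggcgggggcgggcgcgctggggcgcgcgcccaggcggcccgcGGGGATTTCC
In Nfkbia the match began 29 bases before the start, in Nfkbie 106, and in Traf3 10, where it ended at the last base. In Tnip1 overlapping matches on both strands made up 1 stretch that began 58 bases before the start. The matched letters of other members were GGGGAATTCC in Tlr2, GGGACTTCCC and GGGGAATTCC in Nfkbid, GGGACTTTCC at 1 of the 3 listed starts of Nfkb2, and GGGAAATCCC in Rel, whose level had a log2 difference of 0.01. The letters of Nfkbia were GGGAATTTCC on the strand opposite the gene, the same as in Map3k7, which was at -0.01.

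**Figure D5:**
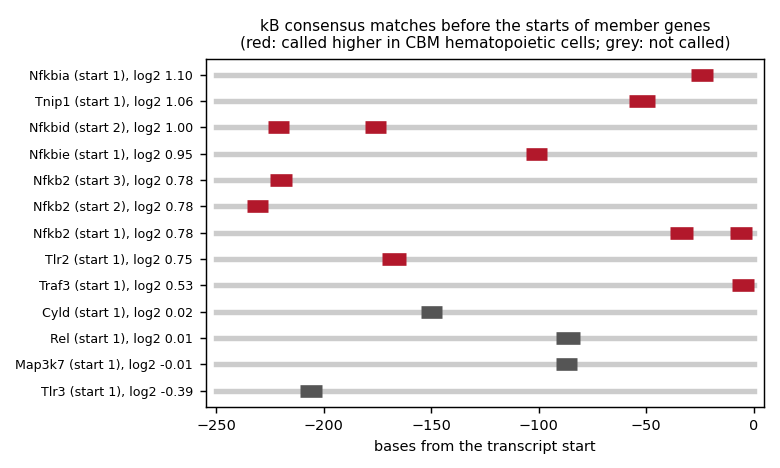
Position of each kB consensus match (blocks) in the 250 bases before the transcript starts of the 11 member genes that hold one, in bases from the start, ordered by the log2 difference between CBM and WT hematopoietic cells. Red blocks belong to the 7 genes that rose and grey blocks to the 4 that were not called. Nfkb2 has 3 listed starts, each with a match.

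Of 37 other genes of the pathway 34 could be tested, and 3 rose (Traf1, Tank, Tnfaip3) and 3 fell (Cd180, Ly86, Peli1) in CBM hematopoietic cells, with a median log2 difference of -0.04. Over all genes 9.01% rose and 6.89% fell, so these counts were near the background. Tnfaip3, the gene of A20, had 57.8, 76.3 and 121.8 CPM in CBM cells, against 34.6, 46.4 and 54.2 CPM in WT cells (log2 0.94, SE 0.15, adjusted p = 0.00116). Traf1, an NF-kB-induced signalling adaptor, had 13.9, 21.4 and 38.4 CPM in CBM cells, against 3.36, 4.65 and 7.25 CPM in WT cells (log2 2.34, SE 0.28, adjusted p = 0.00018). Both separated the genotypes, with A20 and its partner Tnip1 higher in the same libraries. Cd180 and Ly86, which encode the receptor RP105 and its partner MD-1 and restrain TLR4 in dendritic cells and macrophages of mice, both fell, with no overlap of the genotypes. Cd180 had 158.1, 164.7 and 207.3 CPM in CBM cells, against 292.0, 332.6 and 387.6 CPM in WT cells (log2 -0.94, SE 0.09, adjusted p = 4.19e-05), and Ly86 had 47.9, 58.3 and 97.8 CPM in CBM cells, against 160.3, 212.4 and 282.7 CPM in WT cells (log2 -1.70, SE 0.21, adjusted p = 0.00023).

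The products that NF-kB switches on were mixed. Of 28 known targets 21 could be tested in hematopoietic cells, and 9 rose and 3 fell, with a median log2 difference of 0.40 (9.01% and 6.89% over all genes). The anti-apoptotic ubiquitin ligase Birc3 was at 0.83 (SE 0.14, adjusted p = 0.00146), the mitochondrial superoxide dismutase Sod2 at 1.29 (SE 0.22, adjusted p = 0.0019), Tnfaip2 at 1.01 (SE 0.15, adjusted p = 0.000665) and the acute-phase gene Saa3 at 3.55 (SE 0.57, adjusted p = 0.00145). Saa3 had 8.22, 18.5 and 75.4 CPM in CBM cells, against 0.842, 1.64 and 5.15 CPM in WT cells. The 3 that fell, the chemokines Ccl3 (-1.54) and Ccl4 (-1.71) and the surface protein Cd83 (-1.18), are equally classed as targets. Their levels were low for the chemokines, at 0.219 to 6.89 CPM in CBM and 2.60 to 11.4 CPM in WT cells for Ccl3. The list was put together with results of these data known, so its direction is no independent support.

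In mesenchymal cells few of these genes were called between the genotypes, and the counts were near the background over all genes. Of 36 members with enough counts 1 rose and 1 fell, against 3.44% and 3.83% of all 13867 genes tested (7.27% in either direction). Traf6 had 27.8, 30.2 and 37.8 CPM in CBM mesenchymal cells, against 22.5, 24.4 and 28.2 CPM in WT mesenchymal cells (log2 0.37, SE 0.09, adjusted p = 0.0217), with 1 narrow overlap. Its call was lost without CBM replicate 4 (0.0512), WT replicate 4 (0.0519) or WT replicate 5 (0.0536). Tnip2 had 10.5, 11.3 and 11.7 CPM in CBM cells, against 11.8, 14.98 and 19.3 CPM in WT cells (log2 -0.42, SE 0.11, adjusted p = 0.04). Its groups did not overlap, as in 2.08% of all genes in that direction, 2.06% in the other and 4.13% in either, but the call was lost without any 1 of CBM replicates 1 to 3 and WT replicates 1 to 5 (0.0631 to 0.102), with the replicate block (0.0516), with genes of low counts kept (0.0754) and with the leukocyte marker sum as a covariate (0.0735).

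None of the genes that rose in hematopoietic cells was called in mesenchymal cells, where Nfkbid had too few counts to be tested. Nfkbia was at 6.06, 11.5 and 12.1 CPM in CBM mesenchymal cells, against 8.02, 9.58 and 11.9 CPM in WT mesenchymal cells (log2 0.10, adjusted p = 0.772). Tnip1 was at 46.9, 51.9 and 57.2 CPM in CBM cells, against 50.3, 53.8 and 59.1 CPM in WT cells (log2 -0.04, 95% interval -0.17 to 0.09). Nfkbie was at 7.71, 9.78 and 14.4 CPM in CBM cells, against 6.39, 9.77 and 16.3 CPM in WT cells (log2 0.05). Bcl3 (log2 -0.19), Relb (-0.23) and Nfkb2 (0.02) were likewise not called. Irak3 was at 9.11, 17.02 and 24.8 CPM in CBM cells, against 19, 24.2 and 29.5 CPM in WT cells (log2 -0.51, adjusted p = 0.201), opposite in sign to its hematopoietic difference, and was called lower with the leukocyte marker covariate (0.00851). Of the receptors, Tlr4 was at 23.8, 29.8 and 35.1 CPM in CBM cells, against 24.1, 30.9 and 35.5 CPM in WT cells (log2 -0.004, 95% interval -0.23 to 0.22), and Tlr2 at 3.43 to 5.92 CPM in CBM and 2.91 to 4.34 CPM in WT cells (log2 0.27, adjusted p = 0.437). Of 10 osteoclast markers 6 could be tested here and 3 rose, with sums of 248.8 to 492.6 CPM in CBM and 217.4 to 400.3 CPM in WT libraries. Among the 31 other pathway genes tested here Hsp90b1 alone was called, as lower (log2 -0.36, adjusted p = 0.0498). Among the 11 NF-kB targets tested Ier3 (log2 0.86, adjusted p = 0.00528) and Cxcl1 (1.31, adjusted p = 0.0129) rose and none fell. Over all genes 3.44% rose and 3.83% fell in mesenchymal cells.

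The genotype by population interaction, which tests whether the genotype difference in hematopoietic cells exceeds that in mesenchymal cells, was called higher for 8 of 42 members and lower for 1, against 4.36% and 2.92% of all 15389 genes (7.28% in either direction). Its size was 1.08 for Tnip1 (SE 0.13, adjusted p = 2.54e-05), 1.20 for Bcl3 (SE 0.22, adjusted p = 0.00134), 0.99 for Nfkbia (SE 0.20, adjusted p = 0.00252), 1.02 for Relb (SE 0.25, adjusted p = 0.0113) and 1.14 for Irak3 (SE 0.30, adjusted p = 0.0189). The call of Irak3 was lost with genes of low counts kept in the fit (0.0709). Tnip2 was called at 0.55 (SE 0.13, adjusted p = 0.00717), from a hematopoietic value of 0.14 and a mesenchymal one of -0.42. Tab2 was called at -0.43 (SE 0.09, adjusted p = 0.00492), from -0.21 in hematopoietic and 0.21 in mesenchymal cells, where its levels were 258.3, 294.0 and 313.9 CPM in CBM and 239.5, 247.6 and 280.4 CPM in WT libraries. In mesenchymal cells alone Tab2 was not called (adjusted p = 0.0967), but was by DESeq2 (0.0444) and without CBM replicate 6 (0.047).

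The interaction calls of Nfkb2 and Nfkbie depended on more of the settings. Nfkb2 (0.76, SE 0.22, adjusted p = 0.0374) was lost without any 1 of CBM hematopoietic replicates 2, 4 and 6, WT hematopoietic replicates 3 to 6, CBM mesenchymal replicates 1, 2, 5 and 6 or WT mesenchymal replicates 3 to 6 (0.0507 to 0.0797), and with genes of low counts kept (0.0955). Nfkbie was at 0.91 (SE 0.28, adjusted p = 0.0493). Among the fits with 1 library left out, its call was kept only without CBM hematopoietic replicate 5, CBM mesenchymal replicate 3 or WT mesenchymal replicates 1 or 2. The call was lost without each of the other 20 libraries (0.0512 to 0.099). It was also lost with the replicate block (0.0623), with RLE size factors (0.0576) and with genes of low counts kept in the fit (0.105). No receptor had a called interaction, but Tlr4 was at -0.48 (SE 0.15, adjusted p = 0.0571). Tlr4 was called with the replicate block (0.0156), DESeq2 (0.0253) and RLE size factors (0.0442), and without any 1 of CBM hematopoietic replicate 6, WT hematopoietic replicate 3, CBM mesenchymal replicates 3 to 5 and WT mesenchymal replicate 1 (0.0323 to 0.0472). Traf3 (0.44, adjusted p = 0.0922) and Ikbkg (0.47, adjusted p = 0.0721) were also called with the block (0.0275 and 0.0147). Ikbkg was called as well without CBM hematopoietic replicate 5 (0.0333), WT hematopoietic replicate 6 (0.0473) or CBM mesenchymal replicate 6 (0.0299). Tlr7, with few mesenchymal counts, had an interval of -1.66 to 1.58, and a difference between the populations was not detectable at this depth. Of the related lists, Cd180 (-1.33), Traf1 (1.73), Tank (0.46) and Tnfaip3 (0.97) had called interactions among pathway genes, and Sod2 (1.54), Birc3 (0.98), Gadd45b (0.96) and Tnfaip2 (0.77) among targets.

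Most of these genes were higher in the hematopoietic fraction. In WT cells 37 of 42 members were higher in hematopoietic than in mesenchymal cells, against 38% of all genes, and Chuk alone was lower (log2 -0.36, hematopoietic over mesenchymal), against 35.4% (73.5% in either direction). In CBM cells the counts were again 37 and 1, against 39.1% and 33.9% of all genes (73% in either direction). The population differences of each genotype use the same libraries as the genotype comparisons. The 12 receptors had a median log2 difference of 5.62 in CBM and 5.49 in WT cells, the 13 kinases and ubiquitin-linked factors of 1.01 in CBM and 1.05 in WT cells, and the 5 subunits of 0.81 in CBM and 0.63 in WT cells. The 9 inhibitors had medians of 1.78 in CBM cells and 0.99 in WT cells.

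At the extreme were receptors that mesenchymal libraries barely held. Tlr7 differed by 8.75 in CBM and 8.79 in WT cells, Tlr8 by 9.32 in CBM and 8.12 in WT cells and Tlr13 by 7.98 in CBM and 8.22 in WT cells. The 10 leukocyte markers differed by 5.46 to 8.04 in CBM cells and by 6.06 to 8.35 in WT cells. In WT cells 7 members differed by at least as much as the least different leukocyte marker: Tlr1, Tlr7, Tlr8, Tlr9, Tlr13, Cd14 and Ticam2. In CBM cells Nfkbid joined them. Tlr9 had 0 to 0.258 CPM in CBM mesenchymal and 0 to 0.267 CPM in WT mesenchymal libraries, where 3 counts of a library of this study equal 0.19 to 0.304 CPM. Other receptors had clear mesenchymal counts, including Tlr4 and Tlr3, which was at 5.003, 7.99 and 10.2 CPM in CBM and 3.43, 7.93 and 13.8 CPM in WT mesenchymal cells.

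Per kilobase of exon, the levels of different members can be set side by side. In CBM hematopoietic cells the highest means were Cd14 at 71.0 ± 32.6, Tnip1 at 59.2 ± 9.39 and Tlr13 at 52.5 ± 7.30 CPM per kb (SD, n = 6 each). In WT hematopoietic cells they were Tlr13 at 78.1 ± 10.6, Tlr7 at 76.9 ± 10.8 and Tab2 at 59.9 ± 3.22 CPM per kb (SD, n = 6 each). Within each genotype these neighbours differed by less than their spread between libraries, apart from Tab2, whose mean lay below the first 2 by more than 1 SD of either. In mesenchymal cells of both genotypes Tab2 came first, at 47.5 ± 2.97 CPM per kb in CBM and 41.4 ± 2.78 in WT cells, followed by Chuk and Map3k7, all of them signalling parts below the receptors.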

How the data were processed

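RNA of 24 libraries, 6 per group, was analysed from the deposited files, which hold 1 whole-number read count per gene, not normalised by the authors. Stranded paired-end libraries were made after removal of ribosomal RNA, per the labels' protocols. The submitters' processing notes name HTSeq 0.9.1, DESeq2 1.20.0, FastQC 0.11.7 and MultiQC, and the build GRCm38 (mm10). An aligner and a strandedness option were not given in the sources used here. Reads of overlapping genes may therefore have been assigned to either gene or dropped. Symbols came from GENCODE M21 (54165 of 54232 identifiers matched, 31499 with a count), and promoter windows and sequences from RefSeq (GRCm38.p6). Totals of 9875390 to 15826711 counts set the precision of low genes, and limits for a count of 0 (3 counts) cover counting error only. Replicates were compared in 60 pairs (chi-square per degree of freedom 7.23 to 65.0), and none was merged.

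The quasi-likelihood test of edgeR 4.0.16 in R 4.3.3 was run after TMM scaling on genes that passed filterByExpr (at least 10 counts, 15 in total), with p-values adjusted by Benjamini-Hochberg over all genes and a threshold of 0.05. All adjusted p-values come from that test unless another tool is named. Each genotype comparison took the 12 libraries of its population. All 24 entered the interaction and both population comparisons, and the file set was a term throughout. CPM are TMM-scaled over all 24 libraries. Standard errors come from the same fits. Intervals take a normal approximation from these standard errors, so they are narrower than intervals from the quasi-likelihood test would be. The tests were tested on simulated data. Same-numbered hematopoietic replicates deviated together (correlations of their deviations from the means of each group within a file set 0.201 to 0.583). No label says that the numbers pair samples. The main tests did not use the number, and values with it as a block are given where they change a call. Between the mesenchymal genotypes these correlations ran from 0.046 to 0.539, all positive. Between the populations they ran from -0.161 to 0.402 in WT cells and from -0.171 to 0.366 in CBM cells. Alternatives were RLE size factors, DESeq2 1.42.0, no filter on low counts, no file set term, each file set alone, the replicate block, 1 fit of all 24 libraries, stromal and leukocyte marker sums as covariates and each library left out. Every member was named, with up to 4 called genes, by adjusted p, of each related list. The 3 targets that fell, other genes of those lists named with their call and G6pdx were picked with their values in view. The members and lists were chosen with earlier results of these data known.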

Additional observations from a re-analysis of the deposited data

Results flagged for a closer look

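Of 156 member and group values checked for 1 library far from the other 5, 8 were found, near the 1 in 20 that chance gives. CBM hematopoietic replicate 6 stood far above its group for Cd14 (233 CPM, the others 78.25 to 122), Irak3 (222.1 CPM, the others 97.82 to 130.5) and Nfkbid (50.05 CPM, the others 27.77 to 34.46). Irak3 and Nfkbid were called higher in CBM cells, and both calls were kept without this library. CBM hematopoietic replicate 1 was far below its group for Traf6 (43.77 CPM, the others 63.31 to 72.79). In CBM mesenchymal cells replicate 2 was low for Nfkbia (6.056 CPM, the others 10.2 to 12.1) and replicate 3 was high for Nfkbiz (106.4 CPM, the others 61.27 to 75.24). WT mesenchymal replicate 6 was high for Tlr5 (11.09 CPM, the others 3.578 to 6.264) and for Cd14 (2.23 CPM, the others 0.3894 to 1.011).

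In edgeR's interaction test the genotype difference differed between hematopoietic and mesenchymal cells for 9 of 42 members, against 7.28% of all 15389 genes. On the log2 scale the interaction was 1.14 for Irak3, 0.76 for Nfkb2, 1.02 for Relb, 0.99 for Nfkbia, 0.91 for Nfkbie, 1.20 for Bcl3, 1.08 for Tnip1 and 0.55 for Tnip2. It was -0.43 for Tab2, the 1 member called with a lower log2 difference in hematopoietic than in mesenchymal cells. The calls of Nfkb2 and Nfkbie were lost in most fits with 1 library left out. Of the 42 members 19 had a negative interaction.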

How the results depend on the processing

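None of the 105 called results of single members changed sign under any alternative, while 53 of the 99 that were not called did. These counts take in the population comparisons, with 37 higher and 1 lower in each genotype. The alternatives reuse the same libraries, so a kept sign is no independent support. In hematopoietic cells the 11 genes that rose became 2 in file set 2 alone, and the 7 that fell became 3 in set 1 alone, 0 in set 2 alone and 4 in 1 fit of all 24 libraries. With the replicate block 14 rose and 8 fell. In mesenchymal cells the 1 that rose became 2 by DESeq2 and 0 in each file set alone. The 1 that fell became 0 without the filter, in each file set alone and with the block, and 2 in the fit of all 24 libraries. The 8 higher interactions became 5 without the filter, 1 in set 1 and 2 in set 2, and the 1 lower became 2 with RLE size factors, DESeq2 or the block and 0 in each file set alone. The 1 member called lower in hematopoietic than in mesenchymal CBM cells became 2 in set 1 alone and with the block. A file set alone has 3 libraries per group, and the cause of the other shifts was not tested.

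Leaving out 1 library gave 10 to 12 higher and 5 to 7 lower members in hematopoietic cells, 0 to 2 and 0 to 1 in mesenchymal cells, and 6 to 9 and 1 to 2 for the interaction. The population comparison gave 35 to 37 and 1 to 2 in CBM cells, and 36 to 37 and 1 to 1 in WT cells. Over all genes the block called 3315 in hematopoietic cells, against 2231, and DESeq2 called 1645 in mesenchymal cells, against 1008. Each file set alone called 672 and 218 genes in hematopoietic, 391 and 76 in mesenchymal cells and 180 and 138 for the interaction. Higher calls made up 73.4% in set 2 alone in hematopoietic cells, against 56.7%. Low mesenchymal counts of Tlr1, Tlr7, Tlr8 and Tlr9 limit what their interaction can show.

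In the population comparisons the call of Ikbkg in WT cells was lost with RLE size factors (0.0545), DESeq2 (0.0656), no filter (0.0558) or without WT hematopoietic replicates 1 or 6 or WT mesenchymal replicates 4, 5 or 6 (0.0605 to 0.0952), and that of Map3k7 with no filter (0.0687). Tlr5 was gained in WT cells without WT mesenchymal replicate 6 (0.00351) and lost in CBM cells without CBM mesenchymal replicates 2 (0.0571) or 6 (0.0843). In CBM cells without CBM mesenchymal replicate 6, Rela was lost (0.107) and Nfkbiz gained as lower (0.0431), as Nfkbiz was with the block (0.0401). In mesenchymal cells Irak4 was gained as lower in the fit of all 24 libraries (0.0499).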
